A study of Bos taurus with 48 samples.

Results

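PDGFA and 6 receptor tyrosine kinases, PDGFRA, KIT, FLT3, ERBB2, RET and MET, were followed in the whole blood of Holstein-Friesian (H-F) and Jersey (J) bull calves around weaning. These 7 genes, of 24616 in the count table, were chosen because each differed between the breeds on at least 1 of the 3 days by a fold change of 1.5 or more at a false discovery rate (FDR) under 0.1. The values that chose them are therefore given as a description, without a test, and support nothing by themselves. Blood was collected 14 days before the removal of milk (d -14), 1 day after it (d 1) and 8 days after it (d 8), and mRNA was sequenced from each calf on each day. All calves were group-housed bulls that were weaned gradually, by stepwise reduction of milk replacer, and no calf was left unweaned as a control. The data below are from 8 H-F calves and 7 J calves, or 45 libraries. All H-F calves had been bought from 1 farm, whereas more than 1 farm supplied the J calves. The J calves were on average older and lighter at arrival. Breed, farm of origin and age therefore cannot be told apart. Before weaning, concentrate was offered up to a set allowance to H-F calves and without limit to J calves. The paper states that the H-F calves never ate their full allowance.

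Receptor tyrosine kinases are cell-surface proteins that pair up when a ligand binds, phosphorylate each other and start signalling through the RAS-MAPK, PI3K-AKT and STAT pathways. In blood, KIT and FLT3 are best known as the receptors of stem cell factor and FLT3 ligand on haematopoietic progenitors, with KIT also on mast cells and FLT3 on dendritic cells. Platelet-derived growth factor (PDGF) A is stored in platelets and made by monocytes and macrophages, while its receptor PDGFRA is a classic marker of mesenchymal cells. ERBB2, RET and MET are studied mostly in epithelia, nerves and tumours, though transcripts of each occur in some leukocytes.

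Total counts ranged from 28088019 to 39095624 per library, with a median of 33666332, and 12677 genes were tested. Levels are given as CPM, the number of reads of a gene scaled to a common library size, after correction by trimmed mean of M-values (TMM); they are not corrected for transcript length, so no level is compared between genes. All 7 genes passed the filter on low counts. PDGFRA had the fewest reads, between 8 and 277 per library, followed by PDGFA with 28 to 158, whereas ERBB2 had 595 to 6321. In a bulk blood sample, fewer cells of a type and less RNA per cell cannot be told apart.

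The 7 genes split by direction between the breeds. PDGFA, ERBB2 and MET were higher in J calves than in H-F calves, PDGFRA, KIT, FLT3 and RET were lower, and each kept its direction on all 3 days. At d -14, 4 of the 7 genes met the criterion that chose them, 2 higher and 2 lower, where 4.1% of all genes tested met it. At d 1 there were 5, 2 higher and 3 lower (3.73% of all genes), and at d 8 there were 6, 3 higher and 3 lower (3.13% of all genes). Since this contrast chose the genes, nothing is read from those counts. PDGFA, PDGFRA, ERBB2 and RET met it on every day, KIT at d 1 alone, and FLT3 and MET at d 8 alone. The threshold cut closely between days for the last 3 genes. On the log2 scale, where the threshold was 0.585, FLT3 (-0.588) and MET (0.603) stood just inside it at d 8, while KIT stood just outside it at d 8 (-0.572) and MET was outside it at d 1 (0.50).

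**Figure D1:**
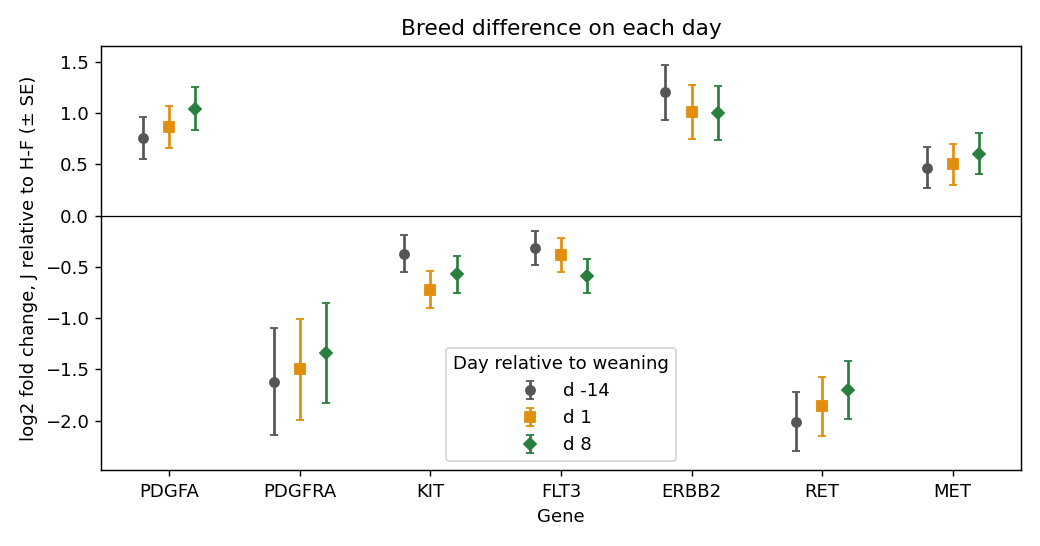
Log2 fold change of J relative to H-F calves on the y axis for each of the 7 genes on the x axis. Points are the fitted values at d -14, d 1 and d 8, with bars of 1 SE from the fit of 45 libraries. This fit treats the 3 libraries of a calf as independent. PDGFA, ERBB2 and MET lie above 0 on all 3 days and the other 4 genes below it, with RET the lowest, between -2.01 and -1.70.

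The days were also compared within each breed. PDGFA, PDGFRA, ERBB2 and RET were chosen on all 3 days alike, so a change between days is not what chose them. FLT3 and MET were chosen at d 8 and KIT at d 1, and a contrast with that day reuses the libraries that chose the gene, so those day values are a description. Treating the libraries of 1 breed as unpaired, edgeR's quasi-likelihood test called 0 of the 7 genes in any of the 6 day contrasts. At an unadjusted p under 0.05, there were 2 genes between d -14 and d 8 in H-F (11.0% of all genes), 2 in the same contrast in J (2.19%) and 1 between d 1 and d 8 in J (0.402%). There were 0 between d -14 and d 1 in H-F (4.17% of all genes) or J (2.55%), or between d 1 and d 8 in H-F (2.12%). Across all genes tested, 0.071% were called between d -14 and d 8 in H-F and 0.0% in the other 5 contrasts. The same calves were bled on each day, however, and with calf as a block in the fit 1 of the 7 genes was called between d -14 and d 1 in H-F (0.252% of all genes), 1 between d -14 and d 8 in H-F (1.08%) and 1 between d -14 and d 8 in J (0.205%). None was called between d -14 and d 1 in J (0.0552% of all genes) or between d 1 and d 8 in either breed (0.0%). These calls were PDGFRA in H-F calves on both days and FLT3 in J calves, the latter a contrast with the day that chose the gene. When the fold threshold was left aside, 6 of the 7 genes passed the FDR between d -14 and d 8 in H-F (13.8% of all genes) and 2 of the 7 in J (0.308% of all genes). In H-F, PDGFRA and ERBB2 were the higher ones, and PDGFA, FLT3, RET and MET the lower ones. Nothing is read from the FLT3 and MET entries in these counts.

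**Figure D2:**
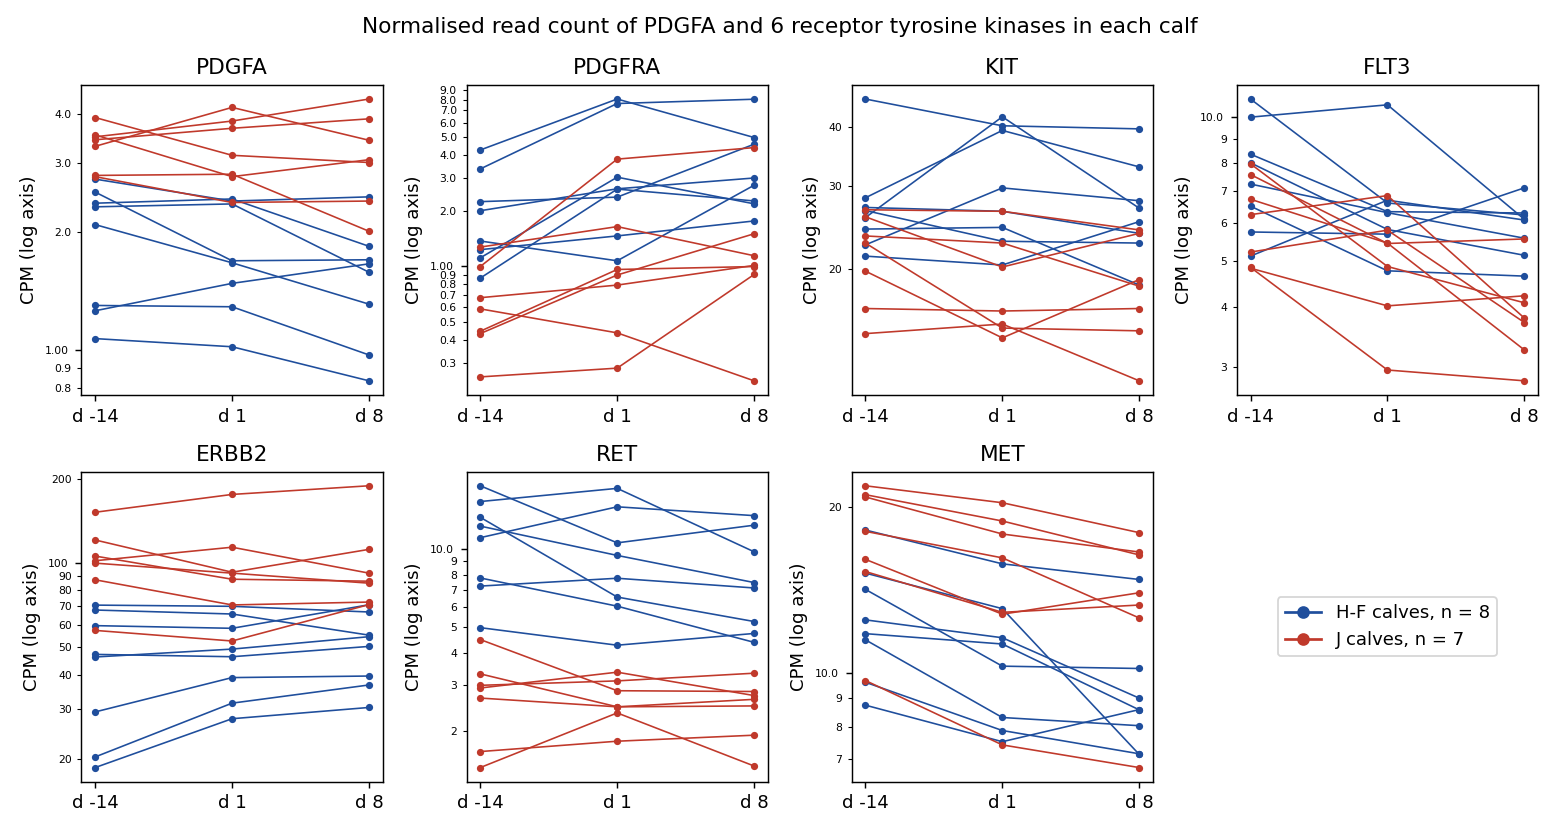
CPM (log axis) of each gene at d -14, d 1 and d 8. Each line is 1 calf, blue for 8 H-F calves and red for 7 J calves. The RET lines of the breeds do not cross at any day, every MET line ends lower at d 8 than it began at d -14, and most PDGFRA lines end higher.

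PDGFA encodes the A chain of PDGF, a growth factor for mesenchymal cells. The H-F calves had a PDGFA level of 1.07 CPM at the lowest, 2.20 at the median and 2.73 at the highest at d -14, against 2.77, 3.44 and 3.92 CPM in J. At d 1 the same values were 1.02, 1.68 and 2.43 CPM in H-F and 2.38, 3.14 and 4.16 CPM in J, and at d 8 they were 0.835, 1.62 and 2.46 CPM in H-F and 2.01, 3.06 and 4.37 CPM in J. The breeds did not overlap at d -14, by a narrow margin, while 6 of 7 J calves stood above all H-F calves at d 1 and 5 of 7 at d 8. Such separation of the 2 ranges was found in 1.17%, 0.655% and 0.844% of all genes at d -14, d 1 and d 8. The log2 fold change of J relative to H-F was 0.76 (SE 0.205) at d -14, 0.86 (SE 0.206) at d 1 and 1.04 (SE 0.208) at d 8. Over the days PDGFA went down in H-F calves. It was lower at d 8 than at d -14 in 7 of 8 H-F calves, with a log2 change of -0.34 (SE 0.108, edgeR adjusted p = 0.0478 with calf as a block, 0.524 without), a change under the fold threshold. The H-F calves that set this call were calf 27 and calf 48, since the adjusted p passed 0.1 without either, with a highest value of 0.123. In J calves PDGFA differed by -0.09 (SE 0.102, edgeR adjusted p = 0.934 with the block), lower in 4 of 7 calves. A sum was taken over 5 platelet markers (PF4, PPBP, GP6, GP9 and TREML1, of 10 on the list). It ranged from 238 to 843 CPM in H-F libraries and from 72.2 to 363 CPM in J libraries over the 3 days. These markers could be matched only where the study had listed the gene as differing between breeds. They are therefore not independent of the breed contrast, and their part in the PDGFA values was not tested.

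PDGFRA, the receptor that binds PDGF A chains, was the most variable of the 7 genes and ran opposite to its ligand between breeds. At d -14 it measured 0.862, 1.69 and 4.27 CPM (lowest, median and highest) in H-F calves and 0.251, 0.587 and 1.27 CPM in J calves. At d 1 these values were 1.07, 2.63 and 8.07 CPM in H-F and 0.28, 0.896 and 3.81 CPM in J, and by d 8 they were 1.76, 2.88 and 8.05 CPM in H-F and 0.239, 1.01 and 4.40 CPM in J. The ranges overlapped on all days, and 5, 5 and 6 of the 7 J calves lay below every H-F calf. J calf 60, with 0.996, 3.81 and 4.40 CPM in the order of the days, was inside the H-F range throughout, and at d 8 it was the only J calf there. The log2 fold change of J relative to H-F was -1.62 (SE 0.519), -1.50 (SE 0.49) and -1.34 (SE 0.486) at d -14, d 1 and d 8. At d 8 the gene met the criterion under 10 of 20 other ways of processing the data, against 20 of 20 at d -14. CDH5, an endothelial gene, was the only 1 of 7 stromal and endothelial markers with an identifier. It could be matched only because the study had listed it as differing between breeds. It was lower in J too, by -0.93, -1.14 and -1.40 on the log2 scale at d -14, d 1 and d 8. Relative to d -14, without the block, CDH5 differed in H-F by 0.519 at d 1 and 0.591 at d 8. In J it differed by 0.308 and 0.124. None of these changes was called. The part of CDH5 in the PDGFRA values was not tested.

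From before to after weaning PDGFRA rose in H-F calves once calves were compared with themselves. All 8 H-F calves were higher at d 8 than at d -14, with differences between 0.222 and 1.33 on the log2 scale, and the fitted log2 change was 0.87 (SE 0.216, edgeR adjusted p = 0.0139 with calf as a block, 0.476 without). This call held under all 16 alternatives run with the block, where the adjusted p was at most 0.0713. At d 1 the change was 0.75 (SE 0.216, adjusted p = 0.0879 with the block, 0.999 without), higher in 7 of 8 calves, but the call held in 6 of the 16 alternatives only. In J calves the mean change by d 8 was similar in size and much more uneven. Of the J calves, 5 were higher and 2 lower, from -1.11 in calf 9 to 2.08 in calf 60, and the fitted change of 0.98 (SE 0.297) had an adjusted p of 0.27 with the block. The difference between the breeds in this change was 0.11 (SE 0.361, edgeR adjusted p = 0.947 with the block).

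KIT encodes the receptor of stem cell factor. It measured 21.3, 26.1 and 45.8 CPM (lowest, median and highest) in H-F calves at d -14, 20.4, 28.1 and 42.0 CPM at d 1, and 18.5, 26 and 39.6 CPM at d 8. The J calves had 14.6, 22.7 and 26.7 CPM at d -14, 14.3, 16.3 and 26.5 CPM at d 1, and 11.6, 18.4 and 24.2 CPM at d 8. The ranges overlapped on each day, and 3, 5 and 4 of 7 J calves were below all H-F calves. On the log2 scale J differed from H-F by -0.37 (SE 0.18), -0.72 (SE 0.181) and -0.57 (SE 0.181). No day change passed the test in either breed. Between d -14 and d 8 KIT differed by -0.02 (SE 0.0934) in H-F, with 4 calves higher and 4 lower, and by -0.23 (SE 0.102, edgeR adjusted p = 0.612 with the block) in J, with 6 of 7 calves lower. Markers of progenitor cells were not used here, and no marker of basophils and mast cells could be matched.

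FLT3, the receptor of FLT3 ligand, had the smallest breed difference before weaning, and every J calf had less of it at d 8 than at d -14. The H-F levels were 5.12, 7.63 and 10.9 CPM (lowest, median and highest) at d -14, 4.77, 6.32 and 10.6 CPM at d 1, and 4.65, 6.10 and 7.11 CPM at d 8. The J levels were 4.83, 6.25 and 7.98 CPM, then 2.96, 5.44 and 6.85 CPM, then 2.81, 3.80 and 5.56 CPM. Only 2 of 7 J calves were below all H-F calves at d -14 and at d 1, whereas 6 of 7 were at d 8. The log2 fold change of J relative to H-F was -0.32 (SE 0.164), -0.39 (SE 0.165) and -0.59 (SE 0.167) at d -14, d 1 and d 8. Within J calves FLT3 was lower at d 8 than at d -14 in 7 of 7 calves, by 0.189 to 1.03 on the log2 scale. The fitted change with calf as a block was -0.66 (SE 0.133) in J, and it met the call criterion except without J calf 6 or J calf 9. In H-F calves it was -0.37 (SE 0.12), lower in 6 of 8 calves, and the breeds' changes differed by -0.29 (SE 0.179). No test is given for these changes, because the low J level at d 8 is what chose FLT3. The 2 dendritic cell markers with an identifier, BATF3 and CLEC10A of 6, were summed. In J the sum was 4.02, 6.75 and 7.39 CPM (lowest, median and highest) at d -14 and 5.15, 6.00 and 6.19 CPM at d 8. In H-F it was 7.48, 10.8 and 13.2 CPM, then 7.34, 9.20 and 11.5 CPM. Between d -14 and d 8, without the block, BATF3 differed by -0.11 and CLEC10A by 0.355 on the log2 scale in J. In H-F they differed by -0.115 and -0.57. Their part in the FLT3 values was not tested.

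ERBB2, a receptor of the epidermal growth factor family that has no known ligand of its own, was higher in J on all 3 days. Its level was 18.6, 46.7 and 70.8 CPM (lowest, median and highest) in H-F calves at d -14, 27.8, 47.8 and 70.1 CPM at d 1, and 30.5, 52.5 and 71.0 CPM at d 8. In J calves it was 57.5, 102 and 152 CPM, then 52.7, 92.1 and 176 CPM, then 71.1, 86.2 and 189 CPM. The ranges met without overlapping at d 8, where 0.844% of all genes had ranges apart. At d -14 and d 1, 6 of 7 J calves were above all H-F calves. J calf 9 was the highest calf on each day. The log2 fold change of J relative to H-F was 1.20 (SE 0.265), 1.01 (SE 0.264) and 1.00 (SE 0.264) at d -14, d 1 and d 8. Over the days ERBB2 was higher at d 8 than at d -14 in 6 of 8 H-F calves, by 0.26 (SE 0.0911, edgeR adjusted p = 0.0749 with calf as a block, 0.849 without), a change under the fold threshold. The adjusted p passed 0.1 without H-F calf 27, 32, 33, 48 or 56, reaching 0.292 at the highest. In J calves the same difference was -0.07 (SE 0.0949, adjusted p = 0.951 with the block), lower in 5 of 7 calves.

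B-cell transcripts moved with ERBB2 from calf to calf. The summed level of 4 B-cell markers (CD22, CD79B, MS4A1 and PAX5, of 8 on the list) was 424, 690.0 and 863 CPM (lowest, median and highest) in H-F at d -14, 601, 793 and 1020 CPM at d 1, and 689, 839 and 978 CPM at d 8. In J it was 755, 1050 and 1260 CPM, then 722, 1060 and 1600 CPM, then 808, 1100 and 1540 CPM. Across the means of 8 H-F calves, ERBB2 and this sum had a Pearson's r of 0.928 (exact permutation p = 0.00134, adjusted p = 0.0375 over 28 relations of the 7 genes with B-cell and platelet markers) and a Spearman's rho of 0.881 (exact permutation p = 0.00724, adjusted p = 0.203). Without the 2 calves farthest from the median sum, r was 0.879. Across 7 J calves r was 0.89 (exact permutation p = 0.0143, adjusted p = 0.2) and rho 0.857 (exact permutation p = 0.0238, adjusted p = 0.261), and r dropped to 0.35 without the 2 farthest calves, so the relation in J rests on those calves. No other of the 28 relations had an adjusted p under 0.05 by either measure. These relations were chosen after the data were seen, and the adjustment covers them alone, so their p-values are a description. CD79B, a gene of this sum, was also among the genes most like ERBB2 in these libraries (r = 0.923). The B-cell sum was higher at d 8 than at d -14 in 8 of 8 H-F calves, by a mean of 0.41 ± 0.287 on the log2 scale (SD, n = 8), while ERBB2 was higher in 6 of 8. In J the sum was higher in 5 of 7 calves, by 0.06 ± 0.145 (SD, n = 7), while ERBB2 was lower in 5 of 7. How far B-cell transcripts account for the breed difference in ERBB2 was not tested. The markers could be matched only where the study had listed the gene as differing between breeds, so they are not independent of the breed contrast.

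**Figure D3:**
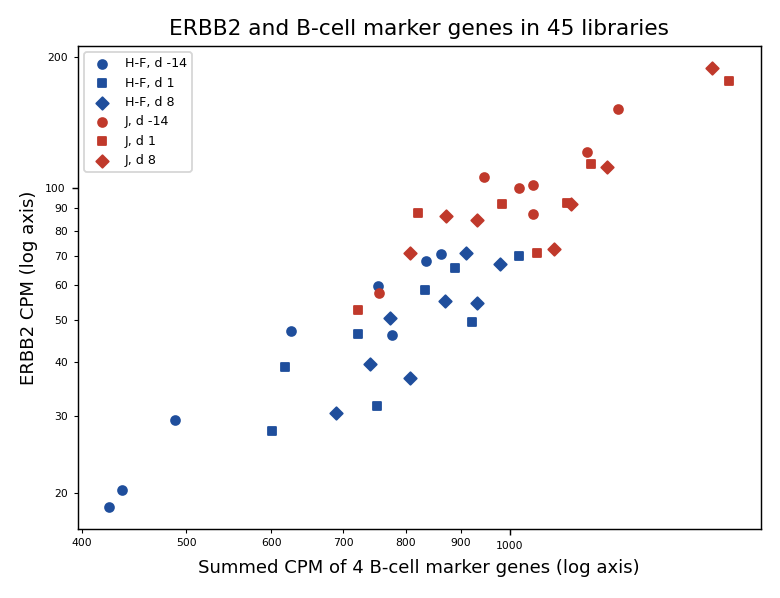
ERBB2 level (CPM, log axis) against the summed CPM of 4 B-cell marker genes (log axis) in each of 45 libraries, with colour for breed and symbol for day. Libraries of H-F calves at d -14 with the lowest sums, from 424 CPM, have the lowest ERBB2, from 18.6 CPM, and J calf 9 lies at the upper right with up to 189 CPM.

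RET, the receptor of glial cell line-derived neurotrophic factor family ligands, showed the widest separation. In H-F calves it measured 4.99, 11.7 and 17.6 CPM (lowest, median and highest) at d -14, 4.27, 8.61 and 17.2 CPM at d 1, and 4.38, 7.28 and 13.5 CPM at d 8. In J calves it measured 1.44, 2.92 and 4.49 CPM, then 1.82, 2.47 and 3.36 CPM, then 1.46, 2.64 and 3.33 CPM. None of these 7 J calves reached the lowest H-F calf on any day. Ranges were apart in 1.17%, 0.655% and 0.844% of all genes at d -14, d 1 and d 8. The J calf that the study left out had 5.59 CPM at d 8, inside the H-F range. The log2 fold change of J relative to H-F was -2.01 (SE 0.285), -1.86 (SE 0.285) and -1.70 (SE 0.284), which is 4.02-fold, 3.63-fold and 3.24-fold lower. Within H-F calves RET went down over the days, lower at d 8 than at d -14 in 7 of 8 calves, by -0.49 on the log2 scale (SE 0.131, edgeR adjusted p = 0.0212 with calf as a block, 0.485 without). The largest drop, -1.33, was in H-F calf 25, and without this calf the adjusted p was 0.106. In J calves the change was -0.14 (SE 0.165, adjusted p = 0.934 with the block), lower in 4 of 7 calves. The difference between breeds in this change was 0.35 (SE 0.211, edgeR adjusted p = 0.682 with the block). RET overlaps CSGALNACT2 on chromosome 28 in the RefSeq annotation of assembly ARS-UCD2.0. The library kit does not mark strand, so reads from a shared stretch cannot be assigned to 1 of these genes. Whether such reads were counted for RET was not checked.

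MET, the receptor of hepatocyte growth factor, was higher in J and lower after weaning than before it in every calf. It measured 8.75, 12.1 and 18.2 CPM (lowest, median and highest) in H-F at d -14, 7.51, 10.8 and 15.8 CPM at d 1, and 7.12, 8.59 and 14.8 CPM at d 8. The J calves had 9.70, 18.1 and 21.9 CPM, then 7.41, 16.2 and 20.4 CPM, then 6.74, 14.0 and 18.0 CPM. The ranges overlapped on all days, and 3, 4 and 3 of 7 J calves were above all H-F calves. J calf 57 was the lowest J calf throughout, at 9.70, 7.41 and 6.74 CPM. On the log2 scale J differed from H-F by 0.47 (SE 0.197), 0.50 (SE 0.198) and 0.60 (SE 0.199). Every calf of both breeds had less MET at d 8 than at d -14. The fitted change with calf as a block was -0.47 (SE 0.0755) in H-F and -0.34 (SE 0.0784) in J, both under the 1.5-fold threshold. These are given without a test, because the breed difference at d 8 is what chose MET. At d 1, which did not choose the gene, MET was lower than at d -14 in 8 of 8 H-F and 7 of 7 J calves, by -0.25 (SE 0.0747, edgeR adjusted p = 0.108 with the block) and -0.23 (SE 0.078, edgeR adjusted p = 0.547 with the block), and neither passed the FDR. The breeds' changes to d 8 differed by 0.12 (SE 0.109).

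**Figure D4:**
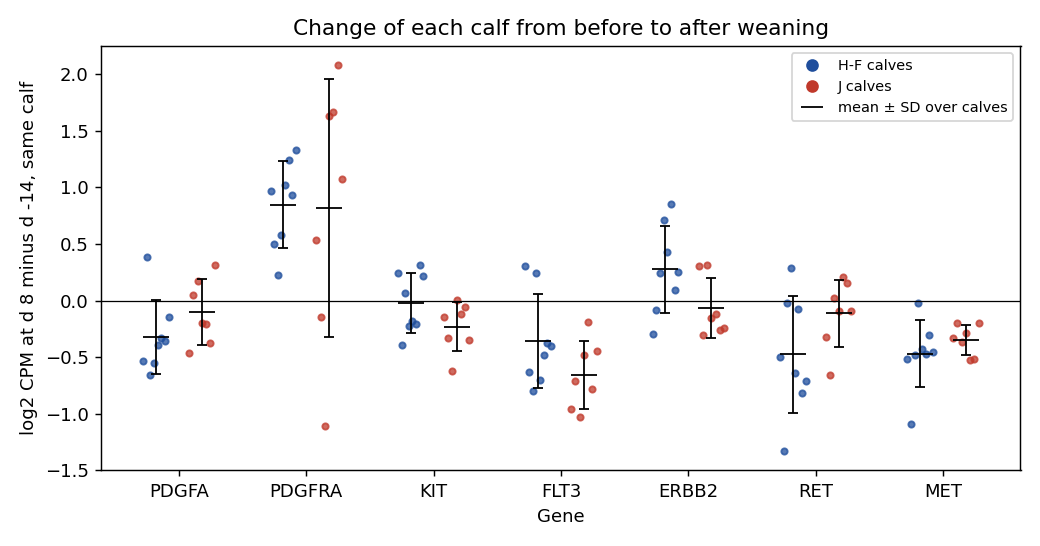
Difference in log2 CPM between d 8 and d -14 of the same calf (y axis) for each gene (x axis). Points are single calves, blue for H-F and red for J, and black marks are the mean ± SD over 8 H-F or 7 J calves. Every MET point of both breeds, every FLT3 point of J and every PDGFRA point of H-F lies on 1 side of 0.

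Whether the breed difference itself changed between days was asked with a breed by day term. For the 7 genes together, edgeR's quasi-likelihood test called 0 in each of the 3 contrasts of days, with or without calf as a block, where 0.0% of all genes were called without the block and at most 0.0158% with it. At an unadjusted p under 0.05 there were 0 without the block, where 0.805% of all genes passed for d 1 relative to d -14, 1.39% for d 8 relative to d -14 and 2.55% for d 8 relative to d 1. With the block there were 2 between d -14 and d 1 (KIT and ERBB2, with 4.69% of all genes), 1 between d -14 and d 8 (ERBB2, with 7.4%) and 0 between d 1 and d 8 (8.31%). The ERBB2 term for d 8 was -0.32 (SE 0.132, edgeR adjusted p = 0.652 with the block), that is, a narrower breed difference at d 8 that did not pass the test. For KIT, FLT3 and MET, which were chosen by a call on 1 day, these terms are a description.

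Calves kept their own level of most of these genes. After removing the day means, the share of the variance that lay between calves of a breed (intraclass correlation) was 0.87 for ERBB2, 0.857 for MET, 0.778 for PDGFA, 0.728 for RET, 0.69 for KIT and 0.676 for PDGFRA, but 0.382 for FLT3. The median over all genes tested was 0.426, so FLT3 alone was below it. MET in J calves was the steadiest, with an SD of 0.451 between calves and 0.0958 within a calf on the log2 scale. Its intraclass correlation there was above that of 99.2% of all genes in J. J calf 57 averaged 7.95 CPM of MET over the 3 days, where the next lowest J calf averaged 13.9 CPM. The spread between J calves therefore rests partly on this calf. PDGFRA varied most in both ways, with an SD of 0.765 between and 0.53 within calves over both breeds.

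**Figure D5:**
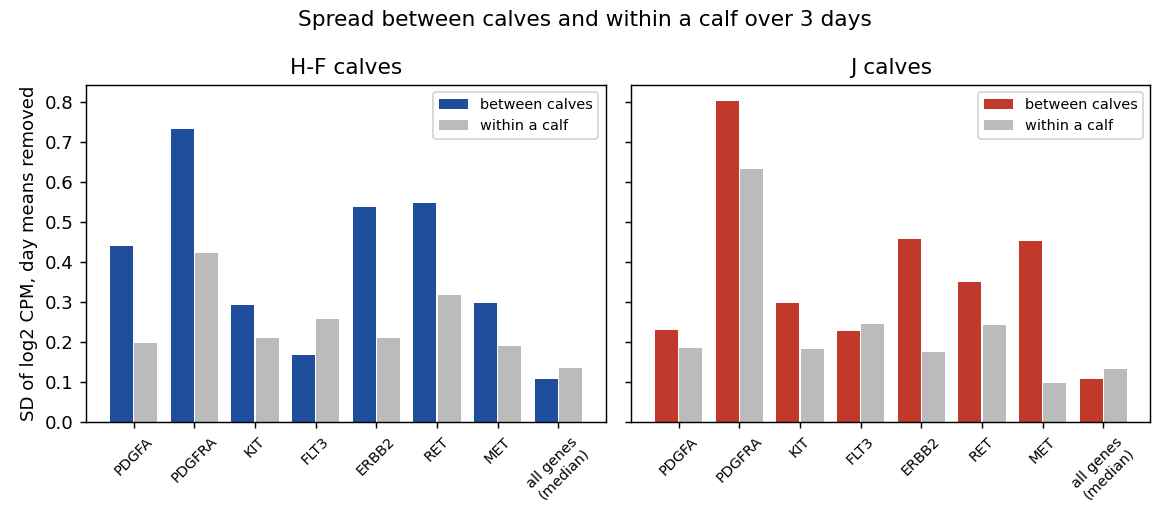
SD of log2 CPM between calves (coloured bars) and within a calf over 3 days (grey bars), after the day means were removed, for each gene and for the median of all genes tested, in H-F (left) and J (right). The bar between calves is the taller one for each gene except FLT3, and PDGFRA has the tallest bars.

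Whether the 7 genes rose and fell together among calves of 1 breed was examined pair by pair. With 8 or 7 calves the adjusted test can miss even strong relations, so the lack of such a group is not shown. Of 42 relations between pairs of genes over calf means, counted in each breed, 0 had an adjusted p under 0.05 by exact permutation, and 1 had an unadjusted p under 0.05 for Pearson's r. This was RET with MET in 8 H-F calves, where r was -0.777 (exact permutation p = 0.0175, adjusted p = 0.734), rho was -0.833 (exact permutation p = 0.0154, adjusted p = 0.646) and r without the 2 farthest calves was -0.934. In 7 J calves the same pair had an r of 0.385 (exact permutation p = 0.406, adjusted p = 0.898). PDGFRA with ERBB2 in 8 H-F calves had an unadjusted p under 0.05 for rho only. There rho was -0.738 (exact permutation p = 0.0458, adjusted p = 0.962) and r was -0.588 (exact permutation p = 0.128, adjusted p = 0.895). PDGFRA and KIT are next to each other on chromosome 6 in the RefSeq annotation. Their r was 0.70 (exact permutation p = 0.0522, adjusted p = 0.879) in 8 H-F calves, and it dropped to 0.119 without the 2 farthest calves. In 7 J calves r was -0.103 (exact permutation p = 0.832, adjusted p = 0.989).

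For each gene, the genes most like it were sought by Pearson's r of log2 CPM over the 45 libraries after the breed-by-day means had been removed. Names were at hand for 697 of the genes compared, all of them listed by the study as differing between breeds, and the 3 libraries of a calf are not independent, so these r are a description. ERBB2 was most like HVCN1 (r = 0.943), TCTN1 (0.928) and CD79B (0.923), and these were also its closest 3 among all genes tested, named or not. CD79B is a part of the B-cell receptor and HVCN1 a proton channel known from B cells. HVCN1 and TCTN1 overlap in the RefSeq annotation, and how reads from the overlap were counted was not checked. Of the named genes, RET was most like SIRPB1 (0.818), CXCL16 (0.658) and TREM2 (0.64), the last a receptor of macrophages. Among all genes tested these ranked 1, 25 and 40. MET was most like MTBP (0.771), IFI27 (0.633) and LRATD1 (0.587), at ranks 1, 9 and 22. KIT was most like GXYLT2 (0.703), ATP8B1 (0.692) and GFPT2 (0.644), at ranks 20, 22 and 38 only. FLT3 came closest to SPECC1 (0.67), DMD (0.557) and FAM46A (0.547), at ranks 4, 37 and 49. PDGFA was most like the macrophage scavenger receptor MSR1 (0.626), then ZSCAN12 (0.542) and SCRN3 (0.506), at ranks 1, 15 and 26. Between breeds the paper reports MSR1 as lower in J at all time-points, whereas PDGFA was higher in J. PDGFRA had no close named partner, with ABCA6 (0.536), SOX5 (0.472) and DMBT1 (0.453) the closest of those compared, and ABCA6 stood only at rank 114 among all genes tested.

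Of 134 other genes of these pathways, among them further receptors, ligands, coreceptors and signalling proteins, an identifier could be matched for 7 only, and only through the study's own lists of genes that differed between breeds in these samples. Counts over the 7 are therefore not independent evidence of a breed difference. They were the receptors ROR2, DDR2, AXL and MERTK, the coreceptor NRP1, the adaptor GRB7 and the signalling inhibitor SPRY1. At d -14, 2 of the 7 were called higher and 4 lower in J (4.1% of all genes tested were called), at d 1 there was 1 higher (3.73%), and at d 8 there were 2 higher (3.13%), with medians of -0.64, -0.18 and -0.33 on the log2 scale. GRB7, an adaptor that binds activated ERBB2, was called on all 3 days. Its level in H-F calves was 4.09, 6.86 and 10.6 CPM (lowest, median and highest) at d -14 and 6.24, 7.72 and 12.1 CPM at d 8, and in J calves 8.35, 12.5 and 21.1 CPM at d -14 and 9.05, 15.5 and 33.9 CPM at d 8. The log2 fold change of J relative to H-F was 0.99 (SE 0.266), 0.97 (SE 0.266) and 1.01 (SE 0.265) at d -14, d 1 and d 8. These values are given without a test, because GRB7 could be matched only through a breed difference in these samples. GRB7 is separated from ERBB2 by 1 coding gene, MIEN1, on chromosome 19 in the RefSeq annotation.

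Between days, edgeR called 0 of these 7 pathway genes in either breed without the calf block. With it, ROR2, a receptor for WNT5A, met the call criterion in H-F calves, by -0.72 at d 1 (SE 0.171, lower in 8 of 8 calves) and by -0.71 at d 8 (SE 0.172, lower in 7 of 8 calves) relative to d -14. When the fold threshold was left aside, ROR2, AXL, MERTK, NRP1 and SPRY1 passed the FDR between d -14 and d 8 in H-F, all of them lower, or 5 of the 7 where 13.8% of all genes passed, and 0 passed in J, where 0.308% of all genes passed. These are a description, because the genes could be matched only through a breed call in these samples. In the fit used here, 4 of them were called between breeds at d -14 alone, where H-F was high. MERTK was called at d 8 alone, where H-F was low. The median of the 7 between d -14 and d 8 was -0.43 in H-F and -0.01 in J on the log2 scale with the block.

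The J calf that the study left out was not used above, except as 1 of the alternatives counted for each gene. Its RET level was 4.16 CPM at d -14, 3.44 at d 1 and 5.59 at d 8, so with it the RET ranges of the breeds overlap at d 8. Its ERBB2 level of 112, 121 and 124 CPM and its PDGFA level of 3.87, 3.81 and 4.58 CPM were above every H-F calf, and its MET level of 18.1, 15.7 and 13.6 CPM was lower on each later day. Its KIT level of 26.9 CPM at d -14 and 28.2 at d 1 was above that of every other J calf.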

How the data were processed

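Whole-blood mRNA was sequenced from each calf at d -14, d 1 and d 8. The deposited values are read counts per gene and library; per the labels and methods, the authors checked reads with FastQC (version 0.10.0), aligned them to the UMD3.1 bovine genome with STAR and counted them with HTSeq, with no version or strand setting stated in the sources used here. The table held 24616 genes and 92 spike-in controls, which took 0.174% to 0.322% of the counts. Intervals for counting error alone are not given, because the spread between replicates already includes it.

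The study removed 1 J calf. It was identified as J calf 85, since mean log2 CPM computed without it differed from the means in the study's gene lists by 2.8e-06 (root mean square), against 0.0508 or more without any other J calf.

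The 12677 genes tested had a CPM over 1 in 8 or more libraries. Counts were scaled by TMM and fitted with edgeR (version 4.0.16, limma 3.58.1, R 4.3.3), by the quasi-likelihood test with 6 breed-by-day means and Benjamini-Hochberg adjustment over all genes tested. Calls needed an FDR under 0.1 together with a 1.5-fold difference. The script was tested on simulated data. Log2 CPM used a prior count of 2. Each library of a calf deviated from the group mean like the calf's other libraries (r from 0.404 to 0.846 for 45 pairs of the same calf, from -0.577 to 0.298 for different calves). The labels give the calf number, so calf was added as a block, which lowered the biological coefficient of variation from 0.185 to 0.102. Breed contrasts lie between calves and cannot be blocked. Each compares 1 library per calf on 1 day. Their spread was estimated over 45 libraries as if the libraries of a calf were independent, so the precision of breed SEs and calls is overstated.

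Correlations used calf means within a breed, with two-sided exact permutation tests. Those with marker sums and the added block alternatives were chosen after seeing the data. DESeq2 (version 1.42.0), edgeR's exact test, RLE size factors, no filter, all 16 calves and leaving out each calf were the alternatives.

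The genes, lists and tests were chosen with earlier results of these data known. Named beside the 7 genes were pathway genes called on all 3 days or in a day contrast, and the 3 named genes most like each; ROR2 and the other pathway genes with a change under the block were named after their values were seen. Gene names came from the study's gene lists, whose fold changes and p-values were not used. Some genes are not reported here, and they were left out of the marker sums and of the search for like genes. Of 82 cell markers, 16 were used, and none of T cells, monocytes, neutrophils or red cell precursors. All 16 were matched through the study's lists of genes that differed between breeds, so their breed differences are not independent evidence. NK markers (NCR1, KLRB1 and GZMB) summed to 25.6 to 60.9 CPM in H-F and 17.5 to 41.4 CPM in J libraries. The single eosinophil marker (PRG3) differed by 1.84, -0.01 and 1.65 on the log2 scale in J relative to H-F at d -14, d 1 and d 8. Sequences of the genes were not used here.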

Additional observations from a re-analysis of the deposited data

Results flagged for a closer look

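Among 42 groups of gene, breed and day, 3 held a calf that stood apart from the others of its group by Dixon's test; chance alone sets apart about 1 in 20 groups. FLT3 in H-F calf 33 at d 1 was 10.6 CPM, where the next calf had 6.7 CPM. KIT in H-F calf 48 at d -14 was 45.8 CPM, where the next had 28.3 CPM. MET in J calf 57 at d 8 was 6.74 CPM, where the next lowest had 12.6 CPM, and this calf was the lowest J calf for MET on the other days too.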

How the results depend on the processing

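The breed direction of each of the 7 genes was the same under all 20 alternatives. The criterion was met in 20 of 20 by PDGFA, ERBB2 and RET on all days, PDGFRA at d -14 and KIT at d 1, in 18 by PDGFRA at d 1, 14 by MET, 10 by PDGFRA and 8 by FLT3 at d 8. KIT at d 8 and MET at d 1, not called, met it in 5 and 2. With 1 calf left out, the number of the 7 genes called between breeds at d 8 was between 3 and 6, with 3 without J calf 9 or J calf 13. Of the 7 pathway genes, 3 to 6 were called at d -14 (3 without J calf 57), 1 to 2 at d 1 (2 on removal of H-F calf 20, 25, 33, 48 or of J calf 6) and 1 to 2 at d 8 (1 without J calf 6 or 13); at d 1 there were 2 with all 16 calves and 2 with no fold threshold. The replicate block by calf, in place of unpaired days, raised the members called from 0 to 1 in H-F at d 1, H-F at d 8 and J at d 8, and the pathway genes from 0 to 1 in H-F at d 1 and at d 8; it changed no other call. With the block, leaving out 1 calf gave 0 to 1 at d 1 in H-F, 1 to 2 at d 8 in H-F (2 without H-F calf 32) and 0 to 1 at d 8 in J (0 without J calf 6 or 9); no fold threshold gave 6 at d 8 in H-F and 2 in J, and all 16 calves gave 2 in J. Removal of any 1 of H-F calves 25, 27, 32, 33, 48, 49 and 56, or of J calves 6, 57 and 77, ended the H-F call at d 1. The causes were not tested. PDGFRA and PDGFA had the fewest reads, so counting error weighs most there.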
